A study of Caenorhabditis elegans with 2 samples.

Results

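The genes described here encode SET-16, the SET1-type enzyme SET-2 and the subunits that work with them in Caenorhabditis elegans. The 9 genes were taken as a named list (set-16, set-2, utx-1, pis-1, ash-2, rbbp-5, wdr-5.1, dpy-30 and cfp-1) out of the 19973 protein-coding genes annotated on nuclear DNA. For each gene, peak summits were read over the gene body and 2000 bp to each side. The peaks come from chromatin immunoprecipitation and sequencing (ChIP-seq) of SET-16 itself, so the list holds the gene of the profiled protein. It also holds the genes of its likely partners, and set-2 and cfp-1, which belong to the SET1 side.

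The samples were 2 biological replicates of 1 group: whole L4 larvae, 48 hours old, of strain RW12223, grown from L1 larvae synchronised by bleaching and starvation. In this strain the endogenous set-16 gene carries TY1, EGFP and 3xFLAG tags inserted by CRISPR, and sonicated chromatin was pulled down with an antibody to GFP. Every sample carries the tagged allele, tissues were not separated, and the control experiment that the labels name was not analysed here. No contrast between conditions exists. The results are therefore counts and values, set beside the same counts over all genes, with no test.

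COMPASS-type complexes add methyl groups to lysine 4 of histone H3 (H3K4), a mark of active promoters and enhancers. SET1-type enzymes are known mainly for trimethylation at promoters, and enzymes of the MLL3 and MLL4 type, to which SET-16 belongs, for monomethylation at enhancers. Both types rely on a shared core of WDR5, ASH2L, RBBP5 and DPY30 proteins, and the MLL3 and MLL4 type adds the H3K27 demethylase UTX and the protein PTIP.

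Called summits were present at 3 of the 9 genes: 11 at set-16, 2 near ash-2 and 1 in pis-1. No summit was called at set-2, utx-1, rbbp-5, wdr-5.1, dpy-30 or cfp-1. These calls come from the conservative list, made from both libraries, of 5795 peaks within an irreproducible discovery rate (IDR) limit of 0.01. Among all protein-coding genes, 26.1% had a summit by the same rule, so the members' count is close to the background. In the replicates' own lists the members with a summit numbered 3 in replicate 1, where 26.6% of genes had one, and 4 in replicate 2, where 21.9% had one. In the second whole-series list, of 6905 peaks, the count was 4, against 29.6% of genes. The additional gene in both cases was set-2. The share with a summit differs with gene length. Of genes of 10000 bp or more, to which set-16 belongs, 58.5% had one, against 20.7% of genes under 1000 bp, to which dpy-30 belongs.

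**Figure D1:**
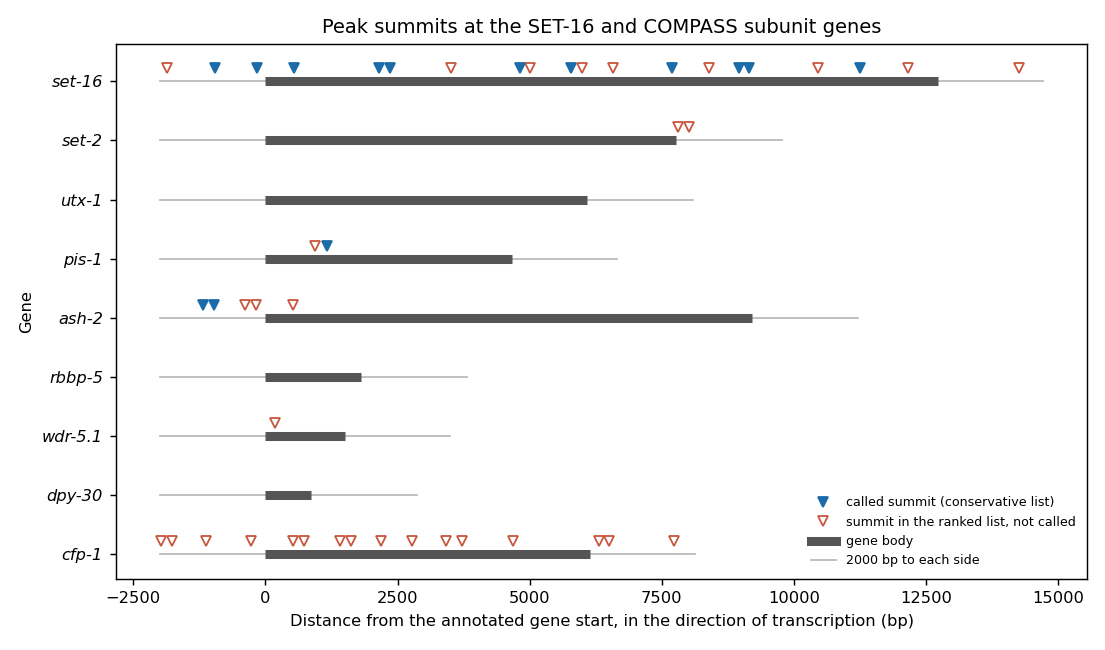
Peak summits over the 9 genes, in bp from the annotated gene start in the direction of transcription; thick bars are gene bodies, thin lines the 2000 bp to each side, filled triangles called summits of the conservative list and open triangles summits of its ranked list that were not called. The 11 called summits of set-16 run along the whole gene, cfp-1 has 16 open triangles and no filled one, and utx-1, rbbp-5 and dpy-30 have neither.

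The set-16 gene (WBGene00011729, chromosome III 13643916 to 13656637 on ce11, plus strand, 12722 bp) had called summits along nearly its entire length. It lies near the right end of the chromosome, at 99.0% of its length. Of the 11 summits, 9 lay inside the gene, all in coding exons, and 2 lay upstream. Summits that share an interval are counted separately here, and the 11 lay in 9 intervals. Only 8 protein-coding genes had 11 or more summits by this rule, of 19973, and 13 had 10 or more. Beside set-16 they were vab-10 (17), pqn-41 (15), eel-1 (12), W05F2.4, let-2, sea-2 and set-26 (11 each), named after their values were seen. Of these, let-2 and set-26 are shorter than set-16. The signal below is the authors' value per peak, on a scale not given in the sources used here, and its order is read only within a list.

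The summit of highest signal in the set-16 gene lay 7703 bp from its start, in exon 11 of 15 of the transcript with the longest coding sequence. Its signal was 733 (rank 405 of 5795), with 509.9 in replicate 1 and 219.7 in replicate 2. Next inside the gene came the summit at 2148 bp in exon 5, with 535, and 339.6 in replicate 1 and 200.5 in replicate 2. The summit at 11249 bp in exon 13 had 504, with 369.6 in replicate 1 and 131 in replicate 2. It was the last one, 1169 bp before the end of the coding sequence. These 3 summits were called in both replicates and were among the 5 of highest signal that set-16 had in each.

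The other 6 summits inside the gene were weaker. That at 8955 bp in exon 11 had a signal of 295, with 197 in replicate 1 and 91.1 in replicate 2. At 2356 bp in exon 5, in the same interval as the summit at 2148 bp, the signal was 269, with 222 in replicate 1 and 79.8 in replicate 2. At 4815 bp in exon 9 it was 226, with 146 and 81.8. All of these were called in both replicates. The summits at 547 bp in exon 4 and 5787 bp in exon 10 had 179 and 142. In replicate 1 their signals were 99.1 and 98.6, and in replicate 2 they were 84.3 and 53.4. The last of these values was close to the limit, with an IDR of 0.0098. The summit at 9159 bp in exon 11 had a signal of 20.6 and shared its interval with the one at 8955 bp. It was called in neither replicate, where its IDR was 0.70 and 0.67.

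Upstream of set-16, summits lay 945 bp and 160 bp before the annotated start. The first had a signal of 733 (rank 407) and fell in a coding exon of drr-2, the neighbouring gene on the opposite strand, which encodes a protein like translation initiation factor eIF4H. Its signal was 469 in replicate 1 and 269 in replicate 2. The second, between the 2 genes, had a signal of 408.5 (rank 999), with 106 in replicate 1 and 305 in replicate 2. It was the sole member summit outside a coding exon. Among the 11 summits of set-16 its signal ranked 8 in replicate 1 and 1 in replicate 2, while the summits at 945 bp upstream and in exon 11 ranked 2 and 1 in replicate 1 and 2 and 3 in replicate 2. The annotated start can be a trans-splice site in this species, so the distance to the site of initiation is not known.

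The DNA at the 2 upstream summits and at the highest summit inside the gene is shown because these include the 2 summits of highest signal at the locus and the one outside any exon. Each line gives 75 bases to each side of the summit, read 5′ to 3′ on the strand of set-16, from the RefSeq sequence of WBcel235 (the assembly of ce11). Capitals mark bases that are coding on either strand, and in the second line, which has none, the copies of GAGACGCAG.
set-16, 945 bp upstream (chrIII:13642896-13643046): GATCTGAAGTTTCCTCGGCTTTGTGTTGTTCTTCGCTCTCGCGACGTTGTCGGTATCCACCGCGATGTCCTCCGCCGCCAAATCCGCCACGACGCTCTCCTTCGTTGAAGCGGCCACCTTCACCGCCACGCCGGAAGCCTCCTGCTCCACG
set-16, 160 bp upstream (chrIII:13643681-13643831): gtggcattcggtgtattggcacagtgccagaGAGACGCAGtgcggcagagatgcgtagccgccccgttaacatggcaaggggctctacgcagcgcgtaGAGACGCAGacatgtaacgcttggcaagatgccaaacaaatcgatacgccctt
set-16, 7703 bp inside (chrIII:13651544-13651694): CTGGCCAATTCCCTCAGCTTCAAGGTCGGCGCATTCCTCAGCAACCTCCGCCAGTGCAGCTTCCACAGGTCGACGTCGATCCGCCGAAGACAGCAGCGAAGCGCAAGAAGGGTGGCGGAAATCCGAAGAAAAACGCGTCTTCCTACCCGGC

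The stretch 160 bp upstream held 2 copies of GAGACGCAG, 1 of which overlaps a GAGAGA. The letters were chosen after this sequence was seen, and both strands were searched. GAGACGCAG lay within 100 bp of 5.37% of all conservative summits and in 2.93% of all promoters of 300 bases (250 before to 50 after the start), and among the members' promoters in that of set-16 alone. GAGAGA lay within 100 bp of 1 of the 14 member summits, the same one, against 24.3% of all conservative summits, and in the promoters of set-16 and ash-2, against 21.8% of all promoters. CAGCTG lay at 0 of the 14 and in the promoter of wdr-5.1, against 12% of all summits and 5.55% of all promoters. A match describes the letters only.

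**Figure D2:**
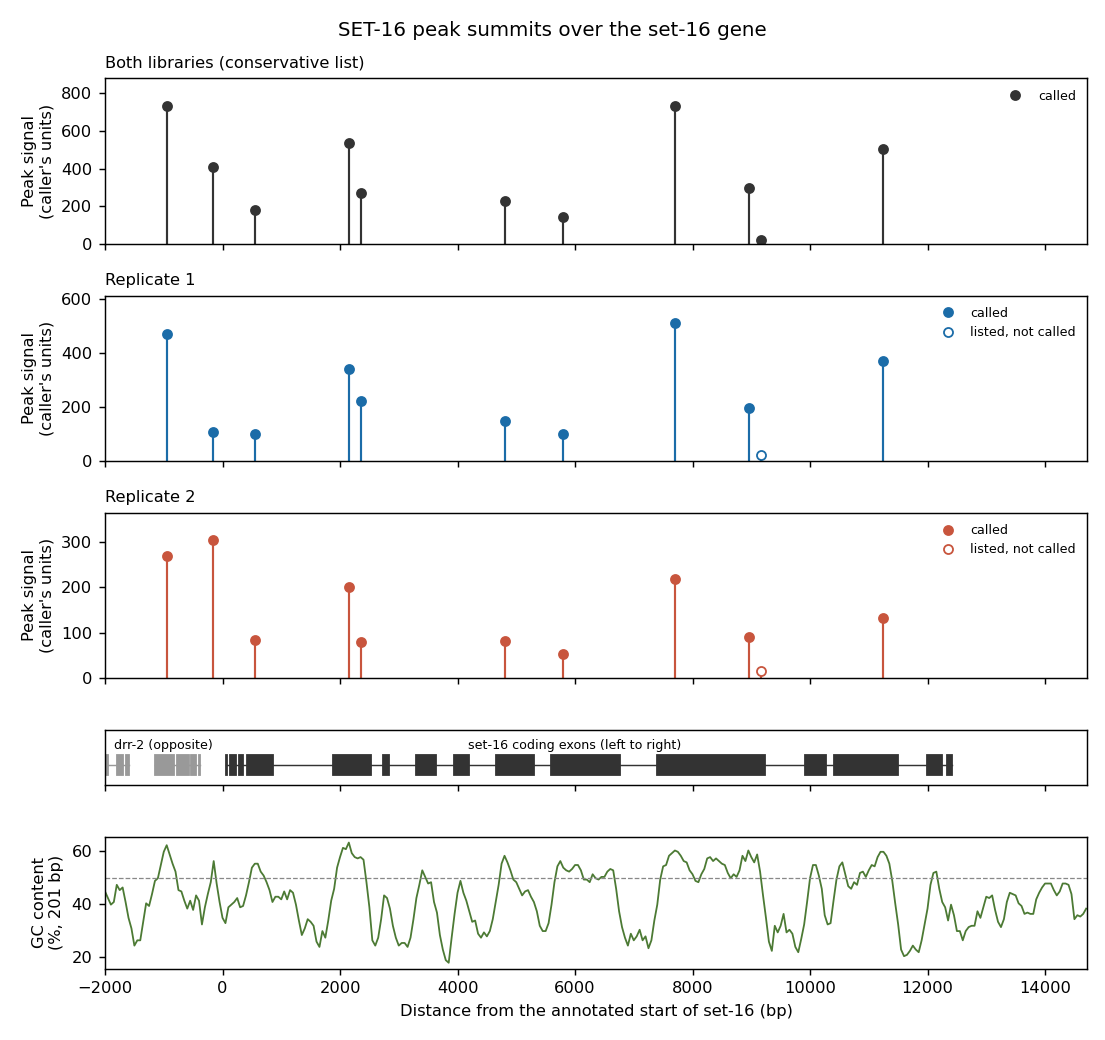
The set-16 locus by distance from the annotated start (bp); the upper 3 panels give the signal of each conservative summit in the conservative list, in replicate 1 and in replicate 2 (open circles, listed and not called), and the lower 2 show coding exons of set-16 and drr-2 and GC content in windows of 201 bp. All summits but the one 160 bp upstream stand over coding exons, and that one, between the genes, is the tallest in replicate 2, with 305 against 106 in replicate 1.

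The summits of set-16 lay in GC-rich DNA, 9 of them in its own coding exons, 1 in a coding exon of drr-2 and 1 between the genes. GC content within 100 bp of the 11 summits ran from 50.7% to 63.2%, with a median of 57.2%, against a median of 54.7% at all conservative summits. The coding sequence of set-16 (7425 bp) had 52.4% GC, and 4.01% of protein-coding genes had as much or more, with a median of 42.5%. Its introns (4929 bp) had 28.2% GC. Across the 11 summits, which share libraries and neighbouring DNA, signal followed GC content with a Spearman rho of 0.845 in replicate 1 and 0.607 in replicate 2, and the signals of the replicates followed each other with a rho of 0.645. The 11 include the summit at 9159 bp, called in neither replicate, which had the lowest GC content and the lowest signal in both. The rho values were not taken without it.

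Some GC-rich stretches of set-16 held no summit of the conservative list. Of 16 stretches of at least 50% GC, 9 lay at a conservative summit and 7 did not. Among these 7, the stretch from 8150 to 8600 bp held a summit called in other lists. The second whole-series list called it at 8401 bp (signal 122, IDR 0.0043) and replicate 1 at 8488 bp (signal 100, IDR 0.00054). In tiles of 200 bp with 55% GC or more, 9 of 12 in the set-16 region held a summit (75%, exact 95% binomial interval 42.8 to 94.5), against 55.8% over all nuclear chromosomes (interval 54.2 to 57.4). At 50 to 55% GC the share was 0 of 11 (interval 0 to 28.5), against 18.4% over all chromosomes (interval 17.7 to 19.1). At 45 to 50% GC the share was 2 of 15 (13.3%, interval 1.66 to 40.5), against 2.97% over all chromosomes (interval 2.80 to 3.15). The intervals cover counting error only, and neighbouring tiles are not independent. With so few tiles, all from a single gene region, they cannot decide whether the shares at set-16 differ from the genome's. The tag inserted in set-16 is absent from the reference, so no peak could be placed on it, and its part in the signal at this locus was not tested.

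Of the remaining partners of the MLL3 and MLL4 type, pis-1 held a called summit and utx-1 none. The gene pis-1 (WBGene00004031, chromosome IV 9791933 to 9796594, minus strand) encodes the worm counterpart of PTIP. Its summit lay 1158 bp from the start in exon 6, a coding exon, with a signal of 205 (rank 2355). The signal was 126 in replicate 1 and 84.0 in replicate 2, it was called in both, and the replicate summits lay 26 bp apart. GC content there was 56.2%. A second summit 929 bp from the start had a signal of 75.8 and was not called, with an IDR of 0.096. The DNA at the called summit is printed on the strand of pis-1, with coding bases in capitals.
pis-1, 1158 bp inside (chrIV:9795361-9795511): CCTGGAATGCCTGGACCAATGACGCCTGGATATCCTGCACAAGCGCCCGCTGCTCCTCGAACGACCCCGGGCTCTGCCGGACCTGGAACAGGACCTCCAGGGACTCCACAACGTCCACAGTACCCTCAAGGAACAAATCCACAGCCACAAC

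The gene utx-1 (WBGene00017046, chromosome X 8557146 to 8563238) encodes the H3K27 demethylase of the complex. It had no peak in either ranked whole-series list or in replicate 1. Replicate 2 listed 4 summits there, with signals of 18.9 to 29.0 and IDR of 0.15 to 0.67, none within the limit. The nearest called summit lay 41169 bp away.

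Among the genes of the shared core, ash-2 alone had called summits, and both lay in a neighbouring gene. The gene ash-2 (WBGene00012458, chromosome II 11979838 to 11989050) encodes the counterpart of ASH2L. Its summits lay 1179 and 973 bp upstream of the start, in a coding exon of Y17G7B.20, which runs in the opposite direction and overlaps the ash-2 start by a few bases. The first had a signal of 409.6 (rank 996), with 241 in replicate 1 and 167 in replicate 2. It was called in both replicates, with summits 2 bp apart. The second shared the interval of the first and had a signal of 51.2 (rank 5546). It was called in neither replicate. In replicate 1 it was listed with a signal of 31.6 and an IDR of 0.33, and replicate 2 listed no summit within 100 bp.
ash-2, 1179 bp upstream (chrII:11978584-11978734): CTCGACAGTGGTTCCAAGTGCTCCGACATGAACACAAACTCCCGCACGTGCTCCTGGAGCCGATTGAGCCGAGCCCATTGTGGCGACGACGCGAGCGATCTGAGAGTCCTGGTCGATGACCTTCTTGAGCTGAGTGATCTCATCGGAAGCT

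This second summit decides whether ash-2 counts as having a promoter peak. In the window from 1000 bp before to 200 bp after the start, 2 of the 9 genes had a summit in the conservative list, set-16 and ash-2, against 6.99% of all genes. In replicate 1 alone and in replicate 2 alone the count was 1, set-16. The share of all genes in this window was taken for the conservative list only, so the counts of the replicates have no background beside them.

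The genes rbbp-5 and dpy-30 held no peak in any of the 8 lists, called or ranked. The gene rbbp-5 (WBGene00017683, chromosome II 6097830 to 6099645) encodes the counterpart of RBBP5, and its nearest called summit lay 74920 bp away. The gene dpy-30 (WBGene00001088, chromosome V 12191519 to 12192385) encodes the counterpart of DPY30, first known in worms for its part in dosage compensation, and its nearest called summit lay 5592 bp away. No tile of either region reached 50% GC, with highest values of 47.0% at rbbp-5 and 48.5% at dpy-30. The coding sequence of dpy-30 has 52.3% GC, as high as that of set-16, but is 369 bp long. The start of rbbp-5 is shown as a gene start with no peak: 75 bases to each side had 32.5% GC. The 5 stretches printed above, which are centred on summits and not on gene starts, had 57.0% to 61.6%. The start of set-16 had 34.8% GC in a window of 201 bp, so a low value there is not particular to rbbp-5.
rbbp-5 start, no peak (chrII:6097755-6097905): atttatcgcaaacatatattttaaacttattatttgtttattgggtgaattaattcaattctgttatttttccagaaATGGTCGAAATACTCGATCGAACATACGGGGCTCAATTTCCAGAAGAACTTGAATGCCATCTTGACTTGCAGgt

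The gene wdr-5.1 (WBGene00006474, chromosome III 3705285 to 3706784) encodes the main worm counterpart of WDR5. Its ranked summit nearest the limit lay 186 bp from the start, in a coding exon, with a signal of 58.1 and an IDR of 0.04. The replicates listed it too, with 18.7 in replicate 1 and 37.3 in replicate 2, and IDR of 0.13 and 0.098. The peak was thus present in every ranked list and within the limit in none.

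Of the genes on the SET1 side, set-2 had a peak called in replicate 2 and not in replicate 1. The gene set-2 (WBGene00004782, chromosome III 4922427 to 4930204, minus strand) encodes the main H3K4 trimethylating enzyme of the worm. In replicate 2 the summit had a signal of 77.3 and an IDR of 0.0020, 207 bp beyond the gene's end and between it and mmab-1. In replicate 1 the nearest listed summit, 280 bp beyond the end, had a signal of 7.59 and an IDR of 0.15. The second whole-series list called the peak with a signal of 82.7 and an IDR of 0.0092, and in the ranked list behind the conservative calls its IDR was 0.42. No list had a called summit inside set-2.

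The gene cfp-1 (WBGene00009924, chromosome IV 14077435 to 14083568) encodes the CXXC zinc finger protein that in other species brings SET1 enzymes to unmethylated CpG DNA. It had 16 summits in the ranked list, more than any other member but set-16, and none was called in any list. Their signals ran from 5.35 to 74.7 and their IDR from 0.038 to 0.61, with 8 in replicate 1 and 7 in replicate 2. The strongest lay 1968 bp upstream, in a coding exon of ccar-1. Over the 9 genes, 6 had a summit in this ranked list with no IDR limit, against 51.5% of all genes, and the 6 held 46 summits in total. Called summits of the conservative list came as near as 3289 bp to cfp-1, outside the flanks used here.

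Where a member summit was called in both replicates, the 2 libraries placed it close together. Of the 14 conservative summits at members, 12 (85.7%) had a called summit within 100 bp in each replicate and 2 in neither. Among all 5795 conservative peaks, 56.0% had one in both. Of the 12, 10 were neighbouring summits of set-16, and the other members gave 2 of their 3. The median signal was 282 at member summits and 170 at all conservative peaks, so the 2 shares are not of like peaks. The distance between the replicate summits of the 12 ran from 1 to 62 bp, with a median of 21.5 bp. The match within 100 bp of the conservative summit limits this distance, and it was not taken over all conservative peaks. In 11 of the 12 the printed signal was higher in replicate 1, and the exception was the summit 160 bp upstream of set-16. The lists give no numbers of reads, so the depth behind these values is unknown, and the 2 signals may not be on the same scale.

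**Figure D3:**
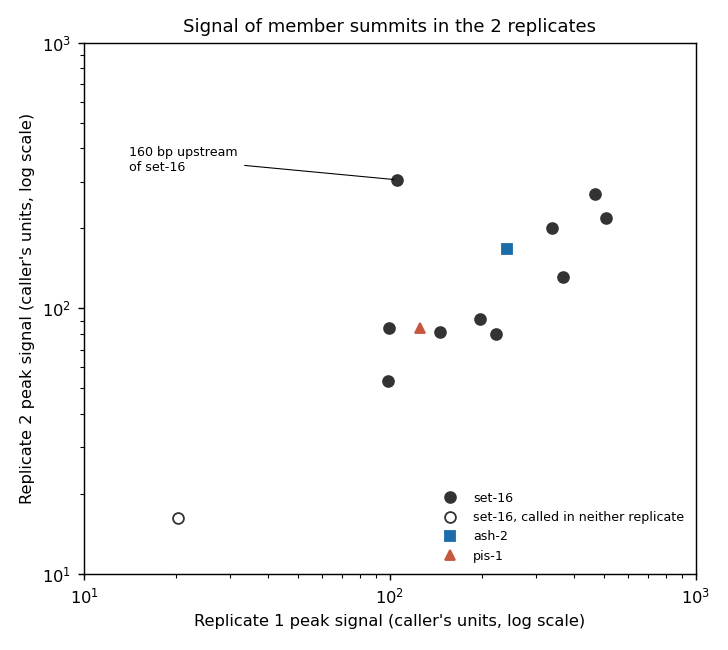
Signal of each member summit listed in both replicates, replicate 1 on the horizontal and replicate 2 on the vertical axis (log scales, the authors' units); the open circle was called in neither replicate. The points of set-16, ash-2 and pis-1 rise together only loosely. The summit 160 bp upstream of set-16 is the only point higher in replicate 2, at 106 in replicate 1 and 305 in replicate 2.

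Other genes of H3K4 methylation were read in the same way. Of 11 such genes (set-17, set-30, wdr-5.2, wdr-5.3, hcf-1, set-9, set-26, spr-5, lsd-1, amx-1 and rbr-2), 3 had called summits, against the 26.1% of all genes. The genes set-26 and set-9 encode close relatives whose proteins bind trimethylated H3K4, and held 11 and 10 summits, with highest signals of 934 and 669. All but 1 of these 21 lay in coding exons. Their coding sequences had 54.9% GC each. Both genes are near copies of each other, so reads may be shared between them and the split of signal is uncertain. The demethylase gene spr-5 had 1 summit in a coding exon, with a signal of 241, and 166 in replicate 1 and 72.3 in replicate 2.

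Among the members and these genes, the regions with the most called summits, set-16, set-26 and set-9, also held the most GC-rich tiles. The set-16 region held 23 tiles of 50% GC or more, set-26 held 20 and set-9 held 19. The other 8 members held 0 to 2 such tiles, and 0 to 2 called summits, and spr-5 held 0 tiles and 1 summit. Among regions with 0 to 2 tiles, summits did not follow tiles. The regions of set-30 and pis-1 held 2 tiles each, with 0 and 1 summits, and that of ash-2 held 1 tile and 2 summits. The part of GC content in these calls was not tested. Among these genes, in the conservative list, set-26 had as many called summits as set-16, and set-9, the near copy of set-26, had 1 fewer. In replicate 1 set-16 had 11, set-26 had 10 and set-9 had 10, and in replicate 2 they had 10, 8 and 6.

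**Figure D4:**
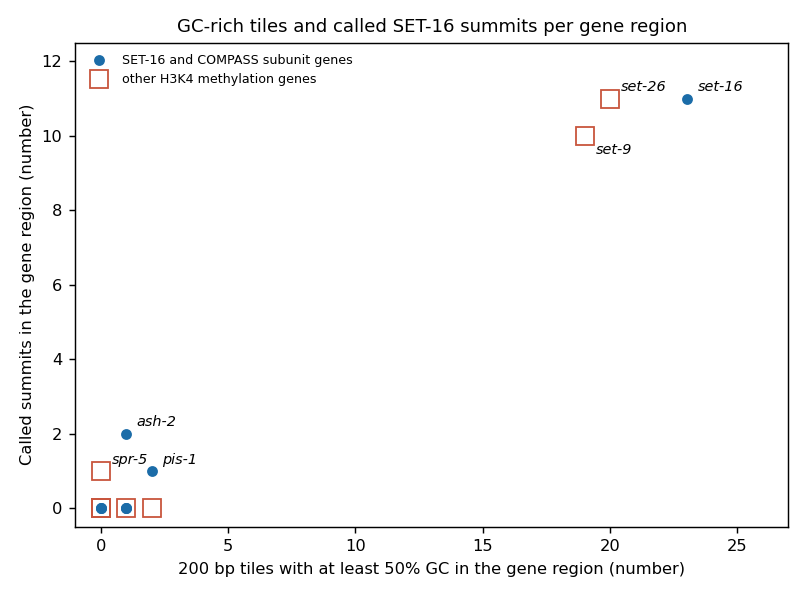
Called summits in the conservative list against the number of 200 bp tiles with at least 50% GC, for the regions of the 9 members (dots) and 11 other H3K4 methylation genes (open squares); several genes share the points at 0 summits. The genes set-16, set-26 and set-9 stand apart with 10 or 11 summits and 19 to 23 tiles.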

How the data were processed

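ChIP-seq peak lists for 2 replicates of 1 group were used, on ce11. Per the deposited readme, the authors made each replicate's lists from that library's alignments and the whole-series lists from those of both, with further files whose role it does not state. Aligner, peak caller and versions: not given in the sources used here. For every peak the authors deposited a signal (scale not given) and a score, an IDR scaled to at most 1000; 830 is the lowest in thresholded lists and corresponds to 0.01. A further 8 columns per ranked list, with unlabelled source peaks, were not used. Depth is unknown.

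Summits were counted over gene bodies and 2000 bp flanks (Ensembl release 115, WBcel235) with Python 3.11.15, pandas 2.3.3 and numpy 2.4.6; counting was checked on made-up summits. Replicate support means a summit within 100 bp. GC content covers 201 bp. Intervals are exact binomial (Clopper-Pearson, scipy 1.17.1). All 9 members are named; other H3K4 genes with a summit are named, and neighbours that hold or flank one. Members and lists were chosen with earlier results of these data known.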

Additional observations from a re-analysis of the deposited data

How the results depend on the processing

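No paired analysis was possible because the 2 libraries form 1 group and nothing was tested. The counts in the report are 3 members and 14 summits over gene bodies with flanks, and 2 members in the gene start window. Of 28 alternatives to these, 20 stayed within 1.5 times. With the ranked list and no IDR limit the counts were 6 members, 46 summits and 4 members in the start window. The share of all genes in the start window was not taken for any alternative, so those counts have no background. The start window count was 1 for the 2898 conservative peaks of highest signal, with 1 summit per interval and with a window of 500 bp to each side. Without either replicate it was 1 to 1, members with a summit were 3 to 4 and summits were 13 in each. With no flank, 10 summits at 2 members were left, since both summits of ash-2 and the 2 upstream summits of set-16 lie outside the gene bodies. Counts per gene kept within 1.5 times in 74 of 90 alternatives. A count of 0 that stayed 0 was taken as kept, and 6 of the 9 members had 0 in the main setting. The 74 therefore say little of the genes with summits. At ash-2, with 2 summits in the main setting, the counts ran from 0 to 5, and at pis-1 from 1 to 2. At set-16 they ran from 9 to 20. At cfp-1 the count of 0 became 2 with flanks of 5000 bp, which raised the members with a summit to 4. Replicates cannot be left out of the whole-series lists, so each replicate's own list stands in. Depth, which the files do not give, limits what the absence of a call shows.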
